A study of Nicotiana tabacum with 9 samples.

Results

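Leaf transcript levels of the tobacco (Nicotiana tabacum) material labelled KY were compared with those of the material labelled Y. The series holds 9 RNA sequencing libraries of leaf tissue, 3 from each of 3 genotypes labelled K326, Y and KY, and the 6 libraries of KY and Y were used here. The labels give no treatment, age or leaf position, do not explain the names Y and KY or how they are related to the flue-cured cultivar K326, and give no allele or transgene that the materials share. Leaf yellowing and the gene DHNA of folate synthesis appear in the title of the study. A gene was tested when its mean over the 6 libraries was at least 1, which left 16051 of the 69500 genes in the deposited table.

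A green leaf fills its mesophyll cells with chloroplasts, in which light-harvesting proteins hold chlorophyll and the Calvin cycle fixes carbon. Yellowing exposes carotenoids when chlorophyll is lost faster than it is made. Folates, which carry one-carbon units for nucleotide, amino acid and methyl group synthesis, are assembled from a pterin, made through dihydroneopterin aldolase, and p-aminobenzoate. Tobacco is an allotetraploid with near-identical copies of many genes from its parental genomes, so a value of a single copy depends on how the authors' counting divided the reads.

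Each value is the deposited expression signal, whose unit is not named and whose read depth is unknown. It summed to between 566121 and 587211 in the Y libraries and to between 560208 and 603165 in the KY libraries. Pearson correlations computed over the tested genes on the log2(value + 1) scale, which are not independent replicates, lay between 0.927 and 0.963 among Y libraries, between 0.898 and 0.954 among KY libraries, and between 0.903 and 0.938 across the materials. KY replicate 1 stood apart from the other 5 libraries on the second principal component, which carried 29.7% of the variance. Its score there was -65.5, and the other libraries lay between -13 and 28.7. On the first component, which carried 33.8%, KY replicate 1 lay at -8.4, and the extremes were Y replicate 2 at -49.4 and KY replicate 2 at 50.4. Separate plants are not stated for the replicates, so p-values measure only the spread among the 6 libraries, part of which may be technical. In leaf tissue, fewer cells of a type and less RNA per cell cannot be told apart.

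The comparison called a small set of genes, all with large differences. With 3 libraries per material, a gene left uncalled is not shown to be unchanged. By limma with Benjamini-Hochberg adjustment, 142 genes (0.885% of those tested) passed an adjusted p below 0.05. Of these, 61 (0.38%) were higher in KY and 81 (0.505%) were lower, and all differed at least 2-fold on the log2(value + 1) scale, on which every log2 difference here is KY minus Y. At an unadjusted limma p below 0.05 there were 1774 tested genes (11.1%), 561 higher in KY and 1213 lower. Among the 61 genes higher in KY, 40 had a Y mean below 0.5, and 17 were listed at 0 in all Y libraries. Among the 81 lower genes, 26 had a KY mean below 0.5, and 10 were listed at 0 in all KY libraries. A gene near 0 in one material passed the filter on the mean only because the other material was high. Where all 3 libraries of a material were at 0, they added no spread, so the gene's own spread came from the other material only. The median log2 difference was 2.31 for the higher genes, -1.85 for the lower ones and -0.05 over all tested genes, of which 7005 were above 0 and 9046 below. When each of the 6 libraries was left out in turn, 32 of the 142 calls held every time and 30 never held. The totals after each omission are given in the closing section. The 3 libraries of one material lay entirely above the 3 of the other in 2688 tested genes (16.7%), with KY above in 854 (5.32%) and Y above in 1834 (11.4%).

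**Figure D1:**
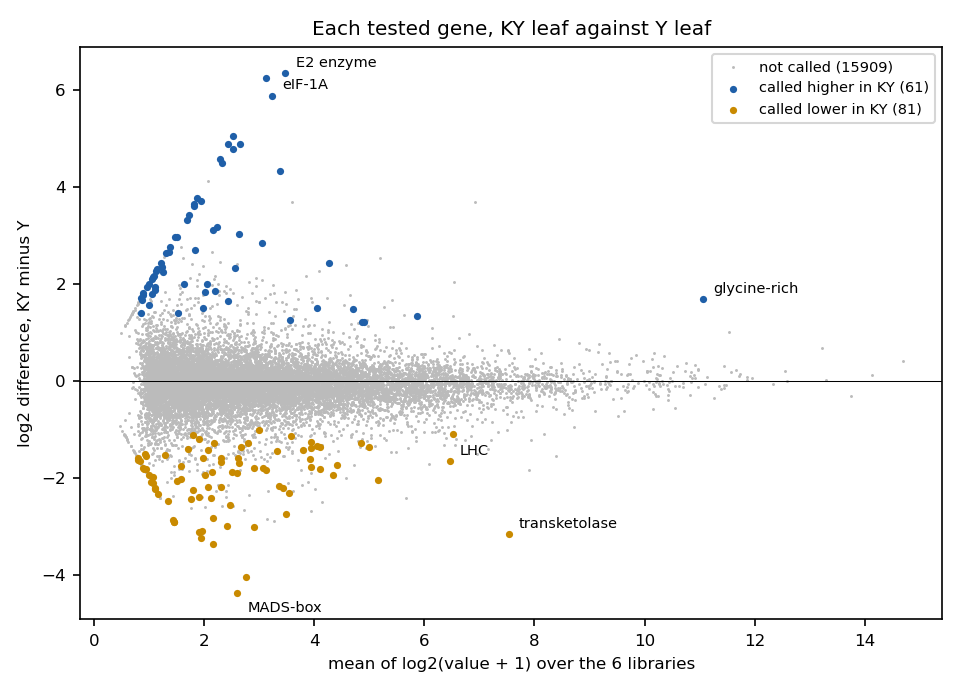
Each point is 1 of 16051 tested genes, with the mean of log2(value + 1) over the 6 libraries on the horizontal axis and the log2 difference, KY minus Y, on the vertical axis. Blue points are the 61 genes called higher in KY and ochre points the 81 called lower, and many of both sit along the slanted edges where one material was near 0.

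The highest differences belonged to genes on 1 scaffold of the Nitab4.5 assembly, read from the identifiers, since no coordinates were used here. An E2 ubiquitin-conjugating enzyme gene (Nitab4.5_0003779g0060), whose product passes ubiquitin on to target proteins, had values of 0.34, 0.13 and 0.23 in Y replicates 1 to 3 and of 87.1, 125 and 91.0 in KY replicates 1 to 3. On the same scaffold, Nitab4.5_0003779g0110 encodes eIF-1A, a factor that helps the small ribosomal subunit find the start codon, and was at 0.36, 0.14 and 0.18 in Y and at 66.9, 78.3 and 69.4 in KY. Both were near 0 in every Y library and high in every KY library, with log2 differences of 6.35 (SE 0.20) and 5.89 (SE 0.17) and a limma adjusted p of 7.63e-05 for each. Another 3 genes of this scaffold rose in KY and were listed at 0 in all Y libraries. These were Nitab4.5_0003779g0010, of unknown description, at 108, 53.5 and 75.2 in KY (limma adjusted p = 0.000276), the DUF2358 gene Nitab4.5_0003779g0130, at 14.5, 43.4 and 37.1 (limma adjusted p = 0.00329), and Nitab4.5_0003779g0040, of unknown description, at 5.72, 5.55 and 4.44 (limma adjusted p = 0.00212). The scaffold holds 20 genes, of which 7 were tested, 10 others were above 0 in at least 1 library but too low to test, and 3 were at 0 throughout. The other tested genes were not called. A heavy metal-associated domain gene (Nitab4.5_0003779g0140) lay at 23.1, 21.2 and 22.2 in Y and 15.3, 17.7 and 14.5 in KY, and a protein kinase gene (Nitab4.5_0003779g0160) lay at 8.30, 8.09 and 9.25 in Y and 7.87, 10.7 and 8.79 in KY.

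Another scaffold holds genes with several of the same descriptions, and its called genes were lower in KY. These genes of the second scaffold were an eIF-1A, a bZIP and a GH3 gene, and the eIF-1A gene is named here after its values were seen. The eIF-1A gene (Nitab4.5_0002262g0150) was at 136, 138 and 126 in Y and at 68.9, 59.3 and 56.2 in KY, without overlap. It was lower in KY by a log2 difference of -1.11 (SE 0.16, limma adjusted p = 0.0325), a call lost without any 1 library except KY replicate 1 (adjusted p of 0.0809 to 0.224 by limma). A bZIP gene of the G-box binding type (Nitab4.5_0002262g0160), of a family of transcription factors that bind light-responsive promoters, fell from 34.1, 27.5 and 24.01 to 3.15, 2.84 and 4.13 (log2 difference -2.75, SE 0.21, limma adjusted p = 0.00264). A GH3 gene (Nitab4.5_0002262g0110), of a family that conjugates auxin and other hormones to amino acids, fell from 16.6, 12.9 and 14.8 to 3.44, 2.61 and 4.72 (log2 difference -1.80, SE 0.22, limma adjusted p = 0.0202). The GH3 call was lost without any 1 Y library or KY replicate 3 (adjusted p of 0.0526 to 0.123 by limma). The E2 gene of this scaffold (Nitab4.5_0002262g0120) was not called, at 15.1, 19.2 and 6.62 in Y and 3.76, 7.82 and 3.01 in KY (limma adjusted p = 0.35). Across the 7 tested genes of the second scaffold, out of 17 in all, the median log2 difference was -1.29. The called genes of the whole comparison lay on 129 scaffolds, and 9 of these held at least 2 of them.

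**Figure D2:**
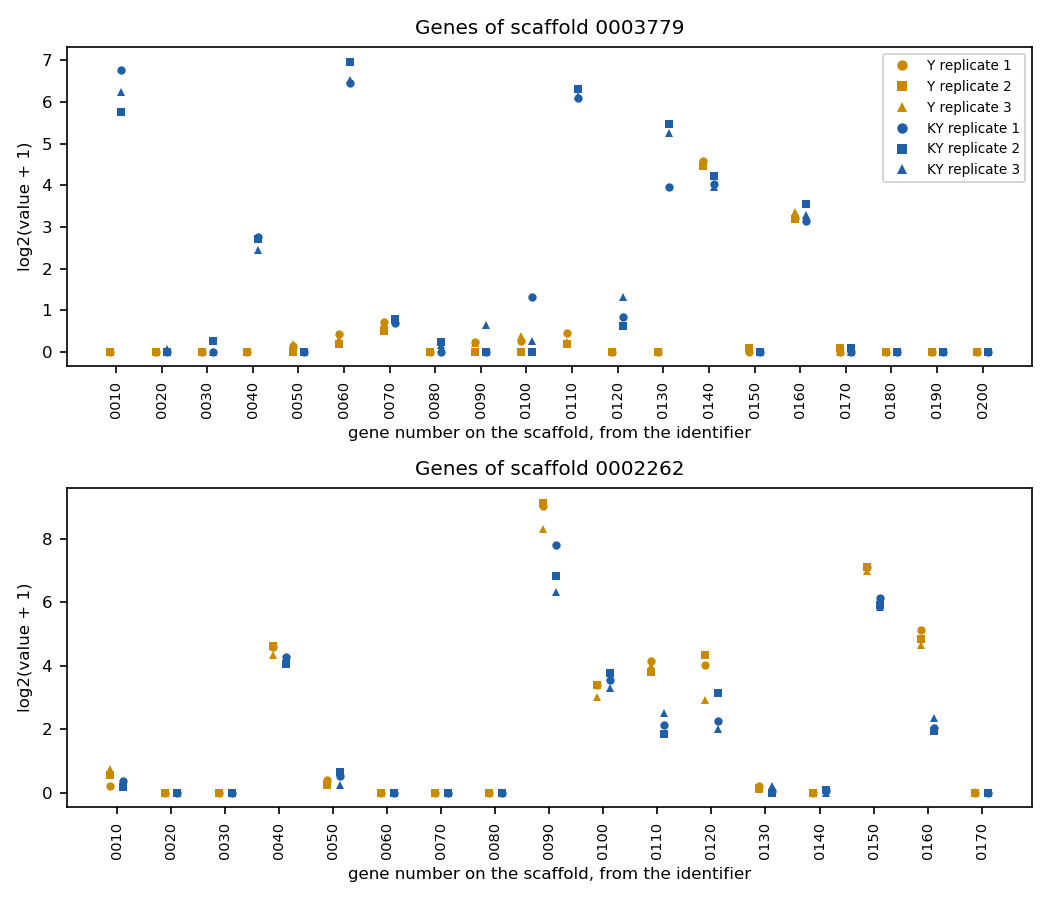
Each panel shows the genes of 1 scaffold in the order of their gene numbers, which is not a distance, with log2(value + 1) in each library on the vertical axis. Ochre marks are the 3 Y libraries and blue marks the 3 KY libraries; in the upper panel the KY marks stand high at the E2 and eIF-1A genes where Y is near 0, and in the lower panel the Y marks stand above the KY marks at the eIF-1A and bZIP genes.

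Further genes higher in KY encode ribosomal, initiation factor and histone proteins, as single copies of their families. Among 166 tested translation factor genes, 2 were called higher and 2 lower (2.41%), where the share over all tested genes was 0.885%. A gene for 60S ribosomal protein L18a (Nitab4.5_0002000g0060) was at 0.19, 0 and 0.32 in Y and at 57.5, 22.8 and 28.4 in KY (log2 difference 4.89, SE 0.35, limma adjusted p = 0.00209). Subunit H of eIF3 (Nitab4.5_0012487g0010), the complex that holds the small ribosomal subunit ready for mRNA, had a gene that was at 0, 0.05 and 0 in Y and at 9.75, 5.35 and 6.44 in KY (log2 difference 2.97, SE 0.24, limma adjusted p = 0.00339). In both genes every KY library stood above every Y library. Of the 6 tested genes with the same L18a description, the others were not called, with log2 differences between 0.05 and 0.34. A histone H2A gene (Nitab4.5_0008504g0010), at 0 in each Y library, reached 78.8, 17.1 and 24.01 in KY (limma adjusted p = 0.00997). The H2B genes Nitab4.5_0001163g0030 and Nitab4.5_0027235g0010 rose as well, from at most 0.14 in any Y library to 31.2, 6.39 and 10.4 and to 22.1, 5.05 and 6.70 in KY (limma adjusted p = 0.0274 and 0.0333). Of the 5 tested genes with the same H2B description, the others were not called, with log2 differences between -0.20 and 0.23. For all 3 called histone genes, KY replicate 1 was the highest library. The H2A call was lost without Y replicate 1 or 2 or KY replicate 3 (adjusted p of 0.0526 to 0.0693 by limma), and the H2B calls were lost without any 1 Y library or KY replicate 3 (adjusted p of 0.0921 to 0.173 by limma). Single copies in such families are uncertain, because reads of near-identical copies can be assigned to either.

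Metabolic, transport and signalling genes completed the highest differences. A class III aminotransferase gene (Nitab4.5_0002232g0040), of a family that moves amino groups with pyridoxal phosphate, was at 0.24, 0.09 and 0 in Y and at 25.1, 36.0 and 27.8 in KY (log2 difference 4.78, SE 0.20, limma adjusted p = 0.000276). A lipid transfer protein gene (Nitab4.5_0000212g0010), of a family that carries lipids to the cell surface, was at 0.1, 0.03 and 0.03 in Y and at 29.2, 19.3 and 20.8 in KY (log2 difference 4.495, SE 0.20, limma adjusted p = 0.00035). On the scaffold of the eIF3 gene, a leucine-rich repeat protein kinase gene (Nitab4.5_0012487g0030) was at 0.01, 0 and 0.01 in Y and at 12.2, 10.2 and 11.5 in KY (log2 difference 3.61, SE 0.17, limma adjusted p = 0.000358). These 3 calls held without any 1 library. Less stable calls were a papain-type cysteine protease gene (Nitab4.5_0000681g0080), at 0.57, 0.61 and 0.54 in Y and 21.2, 12.5 and 8.69 in KY (limma adjusted p = 0.00749), and a Myb-like gene (Nitab4.5_0000308g0160), at 2.62, 0.32 and 1.65 in Y and 22.6, 88.7 and 47.1 in KY (limma adjusted p = 0.0218). The protease call was lost without Y replicate 1 or 2 (limma adjusted p = 0.0505 to 0.057), and the Myb-like call without any 1 Y library or KY replicate 3 (adjusted p of 0.0764 to 0.128 by limma). Genes listed at 0 in all Y libraries and at 5 or more in all KY libraries numbered 7 (0.0436% of those tested), and the reverse held for 1 gene (0.00623%). Without the lower bound of 5, 40 tested genes were at 0 in all Y libraries and 44 in all KY libraries. Besides the genes already named, the 7 included Nitab4.5_0005214g0030, of unknown description, at 30.4, 17.0 and 23.5 in KY (limma adjusted p = 0.000547).

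**Figure D3:**
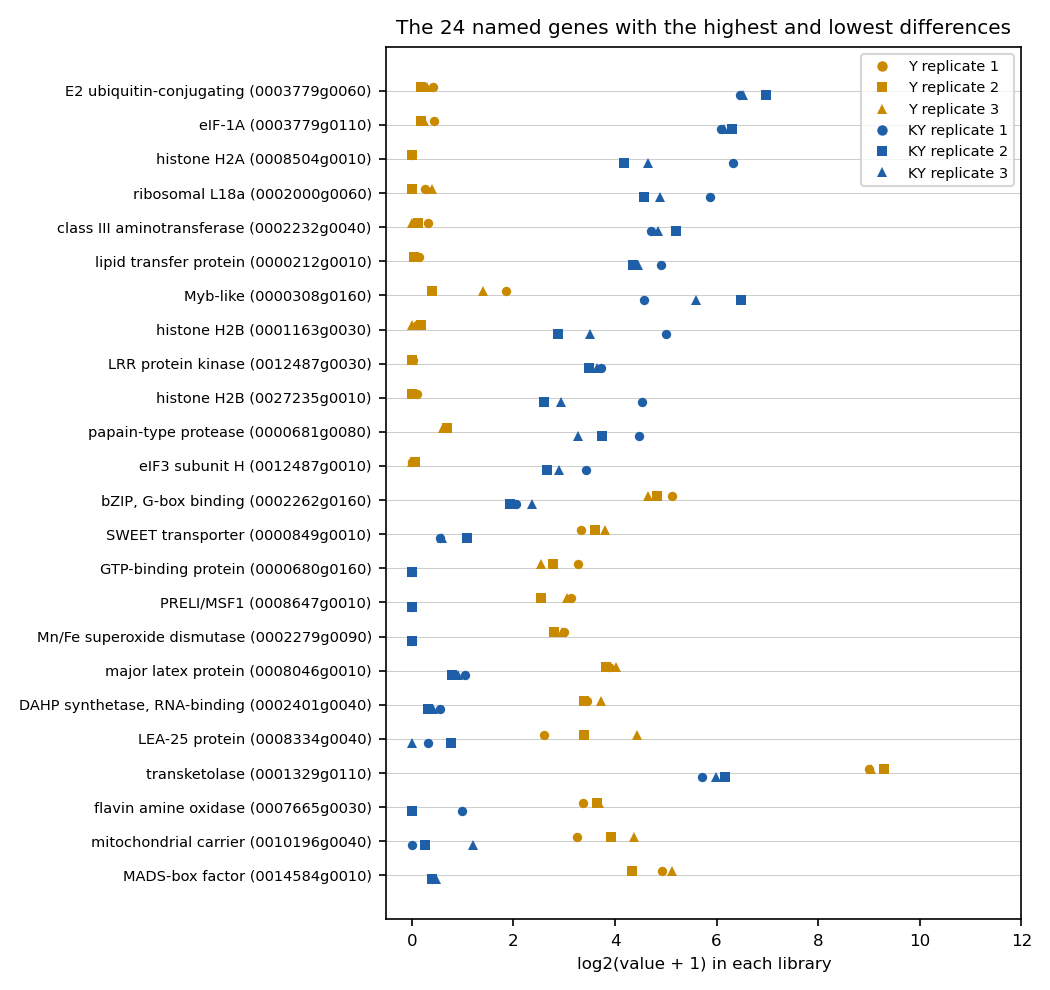
Points give log2(value + 1) in each library for the 12 highest and the 12 lowest differences that were called, in genes with a telling description whose libraries do not overlap and whose higher material averages 5 or more. Ochre is Y and blue is KY, with 1 symbol per replicate number; in each row the 3 libraries of one material lie apart from the 3 of the other.

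Among the genes lower in KY, a MADS-box gene (Nitab4.5_0014584g0010) had the lowest log2 difference of those with an informative description. It encodes a transcription factor with a K-box, of a family best known as regulators of floral organs and flowering time, and was at 29.5, 19.3 and 33.8 in Y and at 0.31, 0.31 and 0.39 in KY (log2 difference -4.38, SE 0.24, limma adjusted p = 0.000664). It was the only one of 10 tested MADS-box genes that was called (10%), where the share over all tested genes was 0.885%. A transketolase gene (Nitab4.5_0001329g0110), whose enzyme moves carbon units between sugar phosphates in the Calvin cycle and the pentose phosphate pathway, fell from 509, 626 and 526 to 51.4, 70.4 and 62.6 (log2 difference -3.16, SE 0.18, limma adjusted p = 0.000692). The other tested genes of the same transketolase type were not called. Nitab4.5_0003912g0020 lay at 541, 720 and 588.1 in Y and at 596, 703 and 653 in KY, and Nitab4.5_0005868g0010 lay at 53.8, 62.6 and 56.9 in Y and at 49.1, 49.9 and 51.2 in KY. Both the MADS-box and the transketolase calls held without any 1 library.

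Several enzymes and transporters were lower in KY as single copies. A gene with a DAHP synthetase domain and an RNA recognition motif (Nitab4.5_0002401g0040), the former being the entry enzyme of the shikimate pathway, fell from 9.87, 9.43 and 12.2 to 0.46, 0.24 and 0.34 (log2 difference -3.09, SE 0.18, limma adjusted p = 0.00083). The other 4 tested genes with that synthetase domain were not called, and their log2 differences lay between -0.52 and -0.04. A SWEET gene (Nitab4.5_0000849g0010), of a family of sugar exporters, fell from 9.11, 11.2 and 12.9 to 0.47, 1.13 and 0.50 (log2 difference -2.84, SE 0.23, limma adjusted p = 0.00329). Another SWEET gene (Nitab4.5_0007236g0030) rose from 20.1, 15.4 and 21.5 to 45.5, 44.9 and 43.9 (log2 difference 1.21, SE 0.18, limma adjusted p = 0.0415), a call lost without any 1 library (adjusted p of 0.0748 to 0.211 by limma). A manganese/iron superoxide dismutase gene (Nitab4.5_0002279g0090), whose enzyme turns superoxide into hydrogen peroxide, was at 7.03, 5.94 and 6.72 in Y, whereas each KY library listed it at 0 (limma adjusted p = 0.000891). A putative translation initiation factor of the aIF-2B type, a description shared with methylthioribose-phosphate isomerase (Nitab4.5_0006512g0010), fell from 12.2, 13.4 and 12.01 to 1.43, 1.76 and 0.78 (log2 difference -2.56, SE 0.21, limma adjusted p = 0.00342).

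Other large falls came from genes of varied description. A major latex protein gene with a Bet v I fold (Nitab4.5_0008046g0010) went from 13.8, 13.2 and 15.3 in Y to 1.06, 0.74 and 0.87 in KY (limma adjusted p = 0.000664). A flavin amine oxidase gene (Nitab4.5_0007665g0030), of a family that includes polyamine oxidases, went from 9.40, 11.5 and 11.95 to 0.98, 0 and 0 (limma adjusted p = 0.00692), a call lost without Y replicate 2 (limma adjusted p = 0.0512). A gene for a mitochondrial carrier like the uncoupling proteins (Nitab4.5_0010196g0040) went from 8.56, 14.2 and 19.6 to 0, 0.19 and 1.32 (limma adjusted p = 0.0183). That call was lost without Y replicate 2 or 3 or KY replicate 2 (adjusted p of 0.0535 to 0.0946 by limma). A PRELI/MSF1 gene (Nitab4.5_0008647g0010), of a family of mitochondrial lipid carriers, and a GTP-binding protein gene (Nitab4.5_0000680g0160) were both listed at 0 in all KY libraries. In Y the first was at 7.78, 4.83 and 7.33 (limma adjusted p = 0.00264) and the second at 8.66, 5.83 and 4.85 (limma adjusted p = 0.00342). An AP2/ERF gene (Nitab4.5_0001603g0010), of the family that holds the ethylene response factors, fell from 48.3, 36.2 and 32.7 to 11.1, 10.2 and 7.16 (log2 difference -1.93, SE 0.24, limma adjusted p = 0.0195). Its call was lost without any 1 Y library or KY replicate 3 (adjusted p of 0.0509 to 0.105 by limma).

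Folate genes showed no called difference between KY and Y. The 3 genes described as dihydroneopterin aldolase (Nitab4.5_0000677g0080, Nitab4.5_0000936g0150 and Nitab4.5_0008674g0010) were listed at 0 in all 6 libraries and could not be compared. Of 35 genes that matched the folate synthesis terms, 16 were tested and 0 were called by limma, with 1 higher and 1 lower at an unadjusted p below 0.05. Of these 16, 9 are described as riboflavin synthesis genes and 1 as an isoprenoid synthase, matched through shared domain names. The other 6 had log2 differences between -0.51 and 0.25, with 3 above 0 and 3 below and a median of 0.00. The median of all 16 was 0.10, which was 0.01 without KY replicate 1 and 0.21 without KY replicate 2. The median of all tested genes was -0.05, and -0.12 and -0.03 after these omissions. GTP cyclohydrolase I, which opens the pterin branch, was represented by Nitab4.5_0002671g0010, at 9.29, 9.08 and 9.39 in Y and 10.1, 11.1 and 8.53 in KY, and by Nitab4.5_0003020g0100, at 9.17, 6.92 and 11.1 in Y and 11.1, 10.5 and 10.7 in KY. The libraries of the materials overlapped in both genes. A gene with the hydroxymethylpterin pyrophosphokinase and dihydropteroate synthase domains (Nitab4.5_0000231g0060), which join the pterin to p-aminobenzoate, lay at 0, 1.59 and 1.33 in Y and 1.32, 1.63 and 0.25 in KY. The highest difference among the 16 was that of a riboflavin synthesis gene (Nitab4.5_0000610g0240), at 0.23, 0 and 1.43 in Y and 2.81, 2.26 and 3.03 in KY (log2 difference 1.36, SE 0.35, limma adjusted p = 0.218). The lowest difference was that of a bifunctional dihydrofolate reductase and thymidylate synthase gene (Nitab4.5_0000308g0320), which links folate reduction to DNA precursor synthesis, at 4.96, 5.07 and 4.56 in Y and 4.13, 2.70 and 2.66 in KY (log2 difference -0.51, SE 0.20, limma adjusted p = 0.405). For gamma-glutamyl hydrolase, which trims folate tails, Nitab4.5_0000383g0060 lay at 11.2, 12.6 and 11.9 in Y and at 9.79, 14.3 and 10.1 in KY, and the materials overlapped. Among 42 tested one-carbon and methyl cycle genes 0 were called by limma, with 2 higher and 4 lower at an unadjusted p below 0.05.

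Few genes of chloroplast functions were called, as were few of all tested genes (0.885%). Of 72 light-harvesting genes 44 were above 0 and 28 below, with a median log2 difference of 0.12, and 1 was called. The median was 0.04, 0.33 and 0.01 without KY replicate 1, 2 and 3 in turn. The median of all tested genes was then -0.12, -0.03 and -0.01. The called gene (Nitab4.5_0000471g0030) fell from 149, 159 and 159 in Y to 49.0, 62.8 and 37.3 in KY (log2 difference -1.66, SE 0.22, limma adjusted p = 0.0232). Its adjusted p was above 0.05 without any 1 library except KY replicate 2 (adjusted p of 0.0516 to 0.14 by limma). The mean log2(value + 1) of the list was 7.68, 7.54 and 7.43 in Y and 7.82, 7.28 and 7.87 in KY, so that KY held both the lowest and the highest libraries. Chlorophyll synthesis genes gave 0 calls among 28 by limma, with 2 higher and 1 lower at an unadjusted p below 0.05 and a median of 0.13, which was 0.02 without KY replicate 1 and 0.33 without KY replicate 2. A glutamyl-tRNA reductase gene (Nitab4.5_0000377g0190), for the first committed enzyme of the pathway, lay at 159, 189 and 158 in Y and at 229, 233 and 235 in KY without overlap (log2 difference 0.47, SE 0.15, limma adjusted p = 0.31). Light-dependent protochlorophyllide reductase, which makes the chlorophyll precursor chlorophyllide, had 5 tested genes, 3 above 0 and 2 below. Their log2 differences lay between -0.49 and 0.71, with a median of 0.035. The highest was that of Nitab4.5_0002526g0100, at 57.5, 73.9 and 49.7 in Y and at 154, 52.2 and 117 in KY, with overlap (limma adjusted p = 0.597). A gene of the pheophorbide a oxygenase type (Nitab4.5_0002162g0210), of the family that opens the chlorophyll ring during breakdown, lay at 74.4, 74.5 and 74.0 in Y and at 36.0, 60.1 and 54.9 in KY (log2 difference -0.59, limma adjusted p = 0.399). By limma, 0 of 17 chlorophyll breakdown, 0 of 40 carotenoid and isoprenoid, and 0 of 137 photosystem and electron transport genes were called. At an unadjusted p below 0.05 they numbered 1 higher and 1 lower, 4 and 1, and 5 and 3. The transketolase described above was the only call among 66 Calvin cycle genes, whose median was -0.02.

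Small auxin-induced genes of the ARG7 type lay mostly below 0, which is towards Y. These short, quickly induced transcripts mark auxin response and are linked to cell expansion. Of 55 tested members 50 were below 0 and 5 above. The median log2 difference was -0.69, where that of all tested genes was -0.05, and the median stayed between -0.96 and -0.55 under 16 alternative settings. In 23 members (41.8%) all Y libraries lay above all KY libraries, where the share over all tested genes was 11.4%, and the reverse held in 0. Only 1 member was called (1.82%), where the share over all tested genes was 0.885%. This was Nitab4.5_0008453g0010, which fell from 15.5, 18.98 and 12.7 to 5.89, 4.54 and 4.82 (log2 difference -1.45, SE 0.21, limma adjusted p = 0.0324). Its call was lost without any 1 library except KY replicate 1 (adjusted p of 0.0516 to 0.183 by limma). At an unadjusted p below 0.05 by limma, 23 members were lower and 0 higher, where 11.1% of all tested genes passed in either direction. The member with the lowest difference, Nitab4.5_0000980g0380, lay at 20.7, 6.94 and 9.26 in Y and at 0.79, 3.05 and 0.71 in KY. The list's mean log2(value + 1) was 2.83, 2.54 and 2.73 in Y and 2.21, 1.80 and 2.09 in KY, without overlap. Without KY replicate 1, the share of members with all Y libraries above the others was 60%, and over all tested genes it was 23.0%. In the wider list of 48 auxin signalling and transport genes the GH3 gene was the only call (2.08%).

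Genes described as HSP20-like also lay mostly below 0. The list holds 40 tested genes with the alpha crystallin domain of the small heat shock proteins, which hold unfolding proteins in a soluble state, and 17 others, mostly with the CS domain of co-chaperones. Of the 40, 30 were below 0 and 10 above, with a median of -0.91, and in 13 all Y libraries lay above all KY libraries. Of the 17, 11 were below 0 and 6 above, with a median of -0.25. Over all 57 the median was -0.47, and in 18 (31.6%) all Y libraries lay above all KY libraries, where the share over all tested genes was 11.4%. By limma 0 of the 57 were called, with 2 higher and 19 lower at an unadjusted p below 0.05, where 11.1% of all tested genes passed in either direction. The lowest difference was that of Nitab4.5_0002443g0040, at 72.5, 136 and 159 in Y and at 8.90, 58.2 and 17.0 in KY (log2 difference -2.42, SE 0.65, limma adjusted p = 0.231). Nitab4.5_0000278g0040 lay at 7.53, 12.9 and 11.4 in Y and at 4.03, 1.28 and 0.50 in KY (log2 difference -2.14, SE 0.45, limma adjusted p = 0.127). A member went the other way in part of the KY libraries: Nitab4.5_0000008g0240 was at 0.55, 0 and 0 in Y and at 0, 25.02 and 17.3 in KY. The list mean was 3.07, 3.44 and 3.33 in Y and 2.47, 2.97 and 2.53 in KY, so that KY replicate 2 came closest to the Y libraries. DnaJ co-chaperones, which deliver clients to HSP70, included Nitab4.5_0005707g0010, at 25.1, 14.01 and 45.6 in Y and 0.26, 5.40 and 4.49 in KY (log2 difference -2.90, limma adjusted p = 0.182). By limma 0 of 258 large chaperone and DnaJ genes were called, with 1 higher and 28 lower at an unadjusted p below 0.05. Of all 16051 tested genes, 561 were higher and 1213 lower at that level, 11.1% in either direction.

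**Figure D4:**
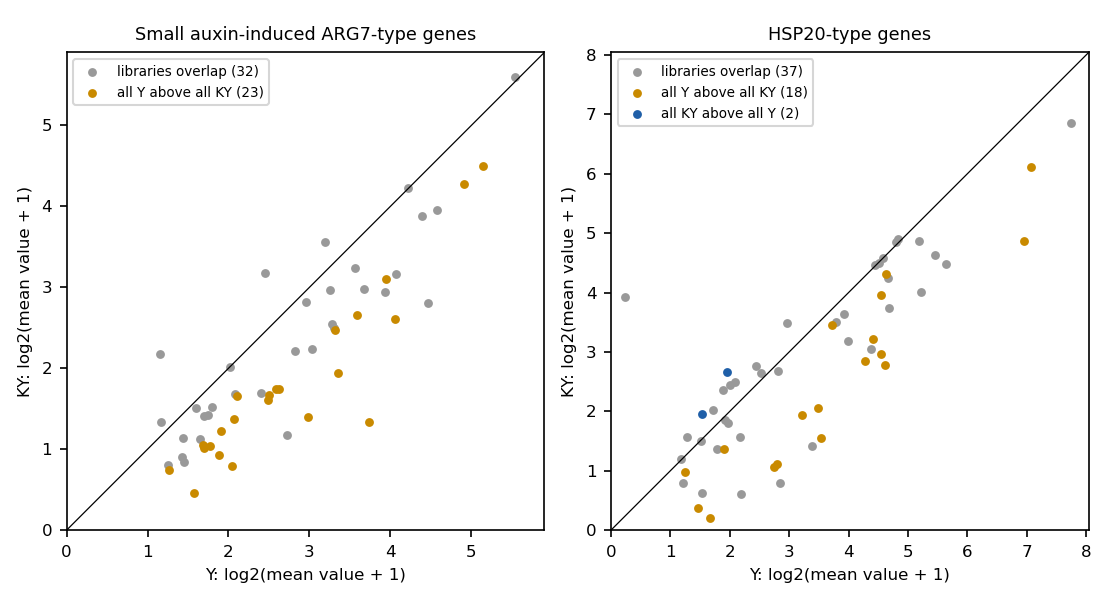
Each point is 1 tested gene of the ARG7-type list (left, 55 genes) or the HSP20-type list (right, 57 genes), with log2(mean value + 1) in Y on the horizontal axis and in KY on the vertical axis. The diagonal marks equal means; ochre points, 23 on the left and 18 on the right, are genes in which all Y libraries lay above all KY libraries.

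Late embryogenesis abundant proteins protect cells during drying. Of 61 tested genes 2 rose and 3 fell, where 0.885% of all tested genes were called, and the median was -0.03. Those that fell were 2 of 4 tested LEA-25 genes and 1 of 5 tested dehydrins, and those that rose were 2 of 44 tested LEA-14 genes. Nitab4.5_0008334g0040 went from 5.07, 9.50 and 20.6 in Y to 0.24, 0.71 and 0 in KY (limma adjusted p = 0.038), Nitab4.5_0002343g0050 from 9.04, 7.87 and 10.6 to 0.47, 0.77 and 1.65 (limma adjusted p = 0.012), and the dehydrin Nitab4.5_0003313g0050 from 6.12, 6.39 and 11.2 to 0.20, 1.09 and 0.79 (limma adjusted p = 0.0218). The LEA-14 genes that rose had low values. Nitab4.5_0003105g0020 was listed at 0 in each Y library and lay at 2.50, 2.02 and 2.25 in KY (limma adjusted p = 0.0178), and Nitab4.5_0012011g0020 went from 0.19, 0.05 and 0.29 to 2.15, 2.81 and 2.42 (limma adjusted p = 0.026). Of the other dehydrins, Nitab4.5_0003883g0030 lay at 6.09, 7.46 and 11.7 in Y and at 1.29, 2.31 and 2.67 in KY (limma adjusted p = 0.0796), whereas Nitab4.5_0000588g0250 lay at 204, 234 and 367 in Y and at 481, 596 and 364 in KY (limma adjusted p = 0.32). The dehydrin call was lost without any 1 Y library or KY replicate 3 (adjusted p of 0.058 to 0.12 by limma). The first LEA-25 call was lost without any 1 library except Y replicate 1 (adjusted p of 0.0572 to 0.194 by limma), and the second without any 1 Y library (adjusted p of 0.0516 to 0.0834 by limma). The first LEA-14 call was lost without any 1 Y library (adjusted p of 0.0526 to 0.0998 by limma), and without a KY library its mean was too low to be tested. The second was lost without any 1 library (adjusted p of 0.0536 to 0.167 by limma).

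Redox genes, which cover superoxide dismutases, ascorbate peroxidases, catalases and redoxins, numbered 284 and had a median of -0.18, with 198 below 0 and 86 above. Of all 16051 tested genes, 9046 were below 0 and 7005 above. All Y libraries lay above all KY libraries in 41 of them (14.4%), close to the 11.4% over all tested genes. The superoxide dismutase already described was the only call (0.352%), where the share over all tested genes was 0.885%. All 6 tested manganese/iron superoxide dismutase genes were below 0, among them Nitab4.5_0000375g0200, at 13.7, 14.3 and 19.4 in Y and 3.84, 6.44 and 10.1 in KY (limma adjusted p = 0.246). Of 27 tested NB-ARC genes, which encode intracellular immune receptors, 0 were called by limma, with 0 higher and 2 lower at an unadjusted p below 0.05. In 9 of them (33.3%) all Y libraries lay above all KY libraries, and the median was -0.20.

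For histones and ribosomal proteins, the difference between materials moved with single libraries, KY replicate 1 among them, and that of tRNA charging enzymes moved less. The 25 tested cytosolic ribosomal protein genes had a median log2 difference of 0.21, with 23 above 0, and KY replicate 1 was the highest of the 6 libraries in 23 of them. Their mean log2(value + 1) was 4.55, 5.12 and 4.43 in Y and 5.82, 4.65 and 4.79 in KY. Without KY replicate 1 the median was -0.15, and without KY replicate 2 it was 0.46. Leaving out Y replicate 2 gave 0.40, and leaving out Y replicate 3 gave 0.08. With all 6 libraries L18a was the only call (4%), where the share over all tested genes was 0.885%. The 101 histone genes gave 3 calls (2.97%), the H2A and H2B genes described above. The median of the list was 0.03, which was -0.33 without KY replicate 1 and 0.35 without KY replicate 2. KY replicate 1 was the highest of the 6 libraries in 83 of the 101. For 67 aminoacyl-tRNA synthetase genes, which load amino acids on tRNAs, the median was 0.18, and 0.04 without KY replicate 1. The latter omission moved the median of all tested genes from -0.05 to -0.12. The synthetase median stayed above 0 under all 16 alternatives, between 0.036 and 0.245. In 9 of the 67 (13.4%) all KY libraries lay above all Y libraries, which held in 5.32% of all tested genes, and the reverse held in 0. By limma 0 of the 67 were called, with 4 higher and 0 lower at an unadjusted p below 0.05. A lysine-tRNA ligase gene (Nitab4.5_0006195g0050) lay at 12.7, 15.1 and 15.8 in Y and at 26.1, 26.6 and 25.6 in KY (log2 difference 0.81, limma adjusted p = 0.125).

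Cell cycle and DNA replication genes numbered 65 and had a median of 0.07, which was 0.01 without KY replicate 1. That omission also moved the median of all tested genes, from -0.05 to -0.12. By limma 0 of the 65 were called, with 7 higher and 1 lower at an unadjusted p below 0.05, where 561 and 1213 of all 16051 tested genes were. KY replicate 1 was the highest of the 6 libraries in 30 of them. The 6 tested genes of the MCM helicase, which unwinds DNA at replication origins, all lay above 0, and in 5 of them all KY libraries lay above all Y libraries, which held in 5.32% of all tested genes. The highest of these differences was that of Nitab4.5_0007687g0010, at 0.61, 1.14 and 0.54 in Y and at 2.85, 2.23 and 2.17 in KY (log2 difference 0.96, SE 0.22, limma adjusted p = 0.165). A gene for PCNA (Nitab4.5_0000744g0120), the sliding clamp of DNA polymerase, lay at 3.55, 4.02 and 2.49 in Y and at 11.5, 6.30 and 4.12 in KY (log2 difference 0.85, limma adjusted p = 0.427). The MCM and PCNA genes were picked out after their values were seen, and no group test was made.

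**Figure D5:**
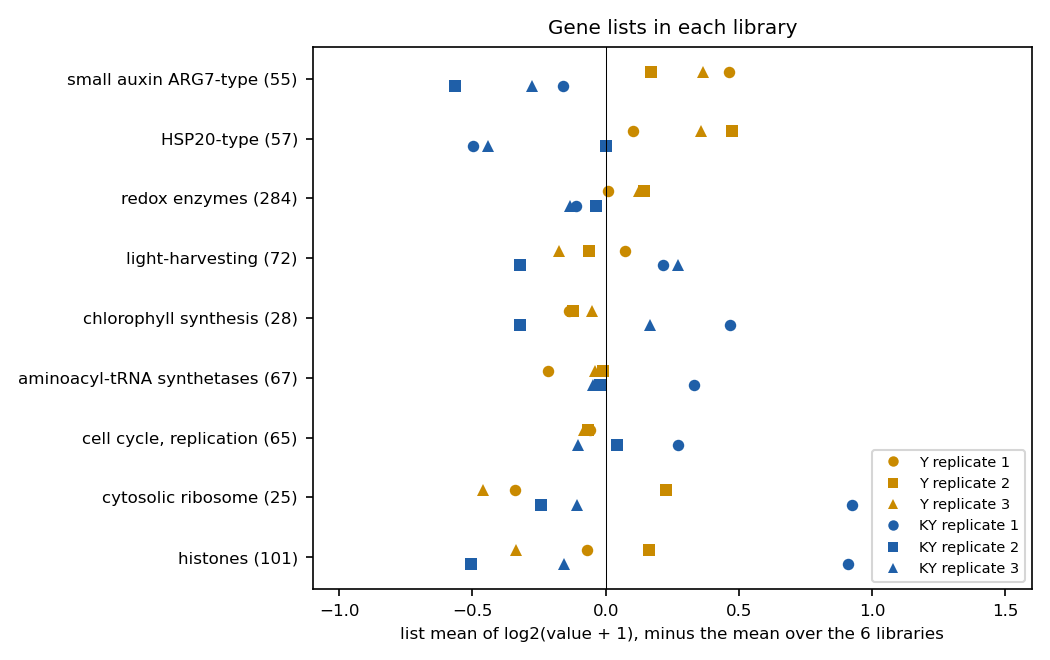
For 9 gene lists, with the number of tested genes in brackets, points show the mean log2(value + 1) of the list in each library after subtraction of its mean over the 6 libraries. The blue circle, KY replicate 1, lies far to the right in the cytosolic ribosome and histone lists, whereas the ochre Y marks lie to the right of all blue KY marks in the ARG7-type and HSP20-type lists.

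Markers of leaf cell types were read beside these results, and their part in them was not tested. The signal summed over all 107 listed mesophyll markers, which are genes for the rubisco small chain and light-harvesting proteins, was 92410 to 110500 in the Y libraries and 111000 to 132500 in the KY libraries. The mean log2(value + 1) of the 81 tested ones overlapped, at 8.14, 8.01 and 7.90 in Y and 8.27, 7.81 and 8.35 in KY. The 365 trichome markers, terpene synthases and lipid transfer proteins, summed to between 3398 and 3559 in Y and between 2802 and 3587 in KY. Of the 58 tested ones 40 were below 0 and 18 above. Their median log2 difference was -0.27, where that of all tested genes was -0.05. The 60 phloem markers summed to between 205 and 375.4 in Y and between 127 and 225 in KY. For 280 dividing-cell markers, histone, MCM, PCNA and kinesin genes, the sums were 1229 to 1881 in Y and 1137 to 3179 in KY, the last in KY replicate 1. The 179 pollen and flower markers summed to between 770 and 866 in Y and between 609 and 1331 in KY, again with KY replicate 1 highest, and the 46 root markers to between 9.30 and 14.7 and between 8.14 and 12.9. Listed at 0 in all 6 libraries were 9 mesophyll, 176 trichome, 12 phloem, 44 dividing-cell, 73 pollen and flower and 11 root marker genes. Leaf mesophyll markers were thus abundant in all 6 libraries, which the labels describe only as leaf tissue.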

How the data were processed

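Per the labels' protocols, total RNA of tobacco leaf tissue was extracted with TRIzol, freed of DNA with DNase I, made into TruSeq libraries and sequenced in read pairs on an Illumina instrument. Per the submitters' processing notes the tools included HISAT2, StringTie and RSEM, with no version or role. The genome build is not given in the sources used here. A single table deposited by the authors gives a signal per gene and library for 69500 Nitab4.5 genes, never negative, with at most 2 decimals and no unit named. The values are not whole numbers and were not treated as counts, and depth is unknown. Gene names are the protein domain descriptions in the table, of which 19827 read Unknown. A RefSeq table of 79372 tobacco genes shared 0 identifiers with it, so no symbols, coordinates or sequences are given.

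The 3 KY and 3 Y libraries were fitted alone, on log2(value + 1) with a pseudocount of 1, for genes with a mean of at least 1, using limma 3.58.1 in R 4.3.3 with a mean-variance trend and Benjamini-Hochberg adjustment over all tested genes. Calls needed an adjusted p under 0.05. The procedure was tested on simulated data. Lists were matched to descriptions and received no test. The comparison, its members and its lists were chosen with earlier results of these data known. Named genes were the dihydroneopterin aldolase genes, the 12 highest and 12 lowest called differences (telling description, higher material averaging 5 or more, no overlap), up to 2 called members per list with the smallest adjusted p or, where none was called, the 2 largest differences without overlap and with a mean of at least 5, given as values, and up to 5 genes at 0 in one material. Other genes named, such as neighbours on a scaffold, relatives in a family and the extremes of a list, were chosen after their values were seen.

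The alternatives were pseudocounts of 0.1 and 0.5, a mean of at least 5 and no filter on low values, median-of-ratios and quantile scaling, no trend, robust fitting, array weights, a replicate block, and leaving out each library.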

Additional observations from a re-analysis of the deposited data

How the results depend on the processing

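Of the 61 genes called higher and the 81 called lower in KY, 22 kept their call under all 16 alternatives. The totals higher and lower were 41 and 53 with a pseudocount of 0.1, 29 and 36 with a mean of at least 5, 33 and 26 without a filter on low values, where 41435 genes were tested, and 1000 and 2141 with array weights, which ranged from 0.307 for KY replicate 1 to 6.53 for KY replicate 3. The share of calls higher in KY was 43% as reported, 55.9% without the filter, 31.8% with array weights and 60.5% with the replicate block. Leaving out 1 library at a time gave 21 to 60 higher and 15 to 79 lower genes. Without Y replicate 1 the totals were 21 and 20, without Y replicate 2 they were 22 and 15, without Y replicate 3 they were 52 and 36, and without KY replicate 3 they were 26 and 16. Without KY replicate 2 they were 46 and 62. Without KY replicate 1 they were 60 and 79, and 96 genes were shared with the 142. Median-of-ratios scaling (69 and 78) and quantile normalization (71 and 77) moved the median of all genes from -0.05 to 0.01 in both cases. With the replicate number as a block, 23 higher and 15 lower genes were called. Same-numbered KY and Y libraries deviated from their material means with correlations of 0.015, -0.162 and 0.135, and not every library correlated best with its own number. Whether same-numbered libraries were handled together is not stated, and these few correlations cannot decide it. No called gene named here changed direction under these settings. Of the uncalled ones, 5 changed direction once each. Leaving out 1 library gave log2 differences of -0.033 to 0.17 for Nitab4.5_0003779g0160 (lowest without KY replicate 2), -0.0037 to 0.20 for Nitab4.5_0003912g0020 and -0.32 to 0.44 for Nitab4.5_0000231g0060 (both lowest without Y replicate 1), and -0.24 to 0.014 for Nitab4.5_0000383g0060 (highest without KY replicate 1). Array weights gave -0.075 for Nitab4.5_0002671g0010. Counted over genes and settings, called genes kept the call 593 times and lost it 173 times, and uncalled genes passed 53 times. The cause of these changes was not tested beyond the smaller numbers of genes or libraries. No root marker was left to take a median over with a mean of at least 5. Unknown read depth limits every value near 0.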

Other observations

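Some families outside the lists held more than 1 called gene or leaned one way, and were chosen after their values were seen, so no test of a family is given. Profilins bind actin monomers and feed filament growth. Of 9 tested profilin genes, 8 had all Y libraries above all KY libraries, which held in 11.4% of all tested genes, and 1 was called, where the share over all tested genes was 0.885%. This was Nitab4.5_0002423g0020, at 29.5, 24.7 and 15.2 in Y and at 4.52, 4.89 and 2.86 in KY (log2 difference -2.22, SE 0.29, limma adjusted p = 0.0251). That call was lost without any 1 library except Y replicate 3 (adjusted p of 0.0516 to 0.128 by limma). Genes described as plant disease resistance response proteins, the dirigent type that guides the coupling of phenolic radicals, gave 2 calls among 14, both lower in KY and next to each other in identifier order. Nitab4.5_0000956g0080 went from 25.1, 29.99 and 22.6 to 8.92, 9.05 and 5.63 (limma adjusted p = 0.0324), and Nitab4.5_0000956g0090 from 44.4, 45.6 and 41.6 to 20.7, 17.4 and 15.1 (limma adjusted p = 0.0316). Both calls were lost without any 1 library except KY replicate 1 (adjusted p of 0.0588 to 0.204 by limma).

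A glycine-rich protein gene (Nitab4.5_0000037g0350) lay at 1059, 1231 and 1296 in Y and at 3048, 5833 and 3139 in KY (log2 difference 1.68, SE 0.26, limma adjusted p = 0.0435), and its call was lost without any 1 library except KY replicate 2 (adjusted p of 0.0518 to 0.224 by limma). A methionine sulphoxide reductase B gene (Nitab4.5_0006892g0030), whose enzyme repairs oxidised methionine, rose from 1.12, 1.86 and 3.84 to 18.7, 22.7 and 22.7 (log2 difference 2.85, SE 0.31, limma adjusted p = 0.0121). The call was lost without Y replicate 1 or 2 or KY replicate 3 (adjusted p of 0.0516 to 0.0891 by limma). A gene with PHD, RING and SRA-YDG domains (Nitab4.5_0000089g0090), a combination found in proteins that read DNA methylation, rose from 1.54, 1.72 and 1.70 to 11.7, 13.8 and 11.4 (log2 difference 2.32, SE 0.17), and this call held without any 1 library.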
